A study of Mus musculus with 48 samples.

Results

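A set of 10 genes of the choroid plexus epithelium was followed through hippocampal RNA sequencing of 48 mice: Ttr, Kl, Clic6, Kcne2, Folr1, Otx2, Tmem72, Sostdc1, Calml4 and Aqp1. They were taken by name from the table of 57126 gene identifiers, and all 10 were found and passed the filter on low counts. The animals were of the outbred CD-1 stock, aged 2 months, and formed 8 groups of 6: males and females whose dams had received plain drinking water (control), manganese (Mn, 2 g/L), lead (Pb, 100 ppm) or both metals (Pb+Mn). Dams were exposed for 8 weeks, starting 2 weeks ahead of mating and ending when pups were weaned at postnatal day 21. Exposure therefore reached the offspring through the dam, the labels used here do not name the litters, and p-values reflect how animals, not litters, varied. Total counts ranged from 6.27 to 27.6 M (mega) per library, with a median of 15.1 M.

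The choroid plexus is a sheet of epithelial cells over leaky capillaries that hangs in the brain ventricles and secretes cerebrospinal fluid. In the lateral ventricle it lies against the fimbria, along the edge of the hippocampus, and is not hippocampal tissue. Its epithelium makes very large amounts of transthyretin, along with ion channels, water channels and vitamin carriers that serve secretion. The comparisons below ask how far transcripts of this neighbouring tissue ranged among the libraries, whether they moved together, which other genes moved with them, and how they bore on the differences between groups. In bulk samples, fewer cells of a type and less RNA per cell cannot be told apart, and whether plexus tissue was taken along with the hippocampus was not tested.

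Genes of hippocampal neurons ranged far less widely. The summed level of 10 genes of hippocampal neurons (among them Camk2a, Nrgn and Slc17a7) ranged from 8335 to 15988 CPM (CPM, counts per M of the TMM-scaled library total), and all 10 were tested in the fit. As a check of the labels' sex, male control 4 had 24.4 CPM of Xist, the RNA that silences an X chromosome, together with 30.8 CPM of the Y-linked Ddx3y. Female Pb 4 had 0.0684 CPM of Xist and 0 CPM of Ddx3y. Results with and without these 2 libraries are given where they bear on the genes.

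Of the secreted proteins, Ttr, which encodes transthyretin, the carrier of thyroid hormone in cerebrospinal fluid, had the widest range. Its level ran from 11.6 CPM in female Pb 5 (206 counts) to 6123 CPM in male Pb 2 (129522 counts), a ratio of 529 (95% interval from counting error alone 462 to 610), with a median of 617 CPM. Of the 48 libraries, 10 lay under 100 CPM, 23 between 100 and 1000 CPM and 15 above 1000 CPM. With all groups pooled, the widest step between neighbouring libraries was 1.74-fold. Within single groups steps were wider, as in male Mn, where no library lay between 102 and 1120 CPM. Whether the values form clusters was not tested. At its highest, Ttr took 0.609% of all counts in a library (Clopper-Pearson 95% interval 0.606 to 0.613%).

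That spread lay within the groups. In male controls the lowest, median and highest values of Ttr were 20.1, 189 and 4079 CPM. In male Mn they were 43.2, 611 and 1730 CPM, in male Pb 153, 1416 and 6123 CPM, and in male Pb+Mn 36.8, 1239 and 3605 CPM. The ranges of the 4 male groups overlapped, but only in part at the low end. Several libraries of male controls and of male Mn lay below 153 CPM, the lowest value of male Pb, as did the lowest of male Pb+Mn. Male controls by themselves ran from 20.1 to 4079 CPM. In female controls the 3 values were 102, 386 and 1992 CPM, and in female Mn 22.3, 437 and 1781 CPM. In female Pb they were 11.6, 759 and 1897 CPM, and in female Pb+Mn 42.4, 844 and 4026 CPM. The highest female library was female Pb+Mn 1, and the lowest value of a group was at most 153 CPM in all 8 groups.

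**Figure D1:**
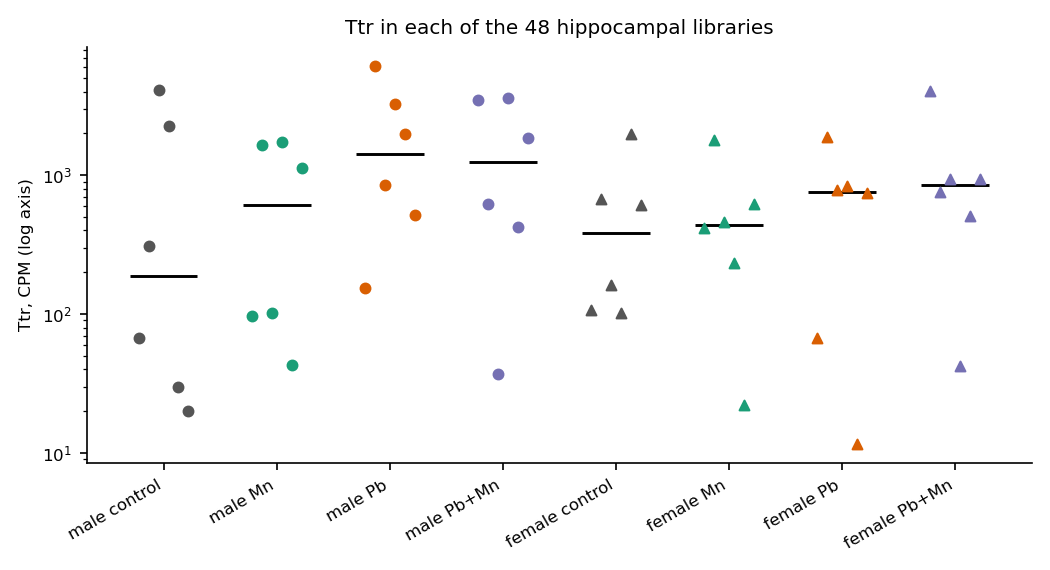
Ttr in CPM on a log axis for each of the 48 libraries, by sex and exposure of the dam (circles, males; triangles, females; horizontal bars, group medians, n = 6 each). Values run from 11.6 to 6123 CPM, and every group overlaps every other.

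The within-group standard deviation (SD) of log2 CPM put these genes among the most variable in the tissue. It was 2.40 for Ttr, which ranked 11 of 14398 genes whose mean log2 CPM was 0 or more, and 2.37 for Tmem72, which ranked 12. Kl, the least variable member, had an SD of 1.07 and ranked 143. Between 8.998 and 14.4% of the variance of each member's log2 CPM lay between groups, and the rest lay among the 6 animals of a group. With 8 groups of 6, some share lies between groups even where groups do not differ. The share is thus not a measure of what sex or exposure account for.

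Kl encodes klotho, a co-receptor for fibroblast growth factor 23 that is also shed into cerebrospinal fluid. It ranged from 12.98 CPM in male control 5 to 274 CPM in male Pb 2 (median 40.2 CPM), a 21.1-fold range (95% counting interval 19.1 to 23.5). Sostdc1, a secreted antagonist of BMP and Wnt signals, ranged from 2.10 to 46.2 CPM (21.97-fold, interval 17.0 to 28.8). Neither gene came near 0 in any library, unlike most of the others.

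Among the carriers and channels, Folr1, the folate receptor that moves folate into cerebrospinal fluid, ranged from 0.225 to 57.4 CPM (256-fold, counting interval 99.6 to 940). Aqp1, the water channel of the apical membrane, had 0 counts in male Pb+Mn 3 and 26.8 CPM in male Pb 2, at least 131-fold higher than the floor of 3 counts in that library (0.205 CPM). Kcne2, a subunit that modifies potassium channels of the apical membrane, ranged from 0.165 CPM, a single count in male control 6, to 34.2 CPM (ratio 207, interval 37.1 to 8193). Clic6, of the chloride intracellular channel family, ranged from 1.08 to 136 CPM (125-fold, interval 75.7 to 224). The low ends of Folr1, Kcne2 and Aqp1 rest on 0 to 4 counts, which leaves their ratios poorly bounded above.

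Otx2, the homeodomain transcription factor that the plexus needs to form, ranged from 0.165 CPM, a single count in male control 6, to 26.9 CPM in male Pb 2 (ratio 163, interval 29.1 to 6450). Tmem72, a transmembrane protein of little known function, ranged from 0.165 CPM, again a single count in male control 6, to 82.6 CPM in female Pb+Mn 1 (ratio 501, interval 89.7 to 19789). Calml4, a calmodulin-like protein, ranged from 0.674 CPM in female Pb 5 to 29.4 CPM in male Pb 4 (43.6-fold, interval 24.6 to 85.2). Male Pb 2 held the highest value of 8 of the 10 genes, the exceptions being Tmem72 and Calml4. Per kilobase of exon, the median level was 520 CPM for Ttr, 7.86 for Kl, 4.09 for Clic6, 3.89 for Calml4, 3.78 for Folr1 and 3.77 for Kcne2. On the same scale Sostdc1 stood at 3.37, Otx2 at 1.403, Aqp1 at 0.908 and Tmem72 at 0.437 CPM per kilobase. The low value of Tmem72 rests on 17152 bases of exon, the most of the 10 genes, and its median before that scaling was 7.50 CPM. Ttr made up between 18.9 and 94.3% of the 10 genes' summed counts.

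The genes rose and fell together from library to library. Over the 45 pairs of members, Pearson's r of log2 CPM across the 48 libraries ran from 0.715 (Kl with Calml4) to 0.984 (Ttr with Kcne2), with a median of 0.890, and Spearman's rho ran from 0.723 to 0.979. Every pair had a two-sided permutation p, adjusted over the 45 pairs by Benjamini-Hochberg, of 1e-05, the smallest that 100000 resamples can give. With group means taken out, r ran from 0.705 to 0.985, and without the 2 libraries farthest from the median of the first gene of a pair it ran from 0.671 to 0.986. Within males r ran from 0.786 to 0.989 and within females from 0.401 to 0.978, the lowest again being Kl with Calml4.

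Of the 10 genes, 6 had a promoter in the RefSeq table (build GRCm38.p6, 250 bases before to 50 after the start), 10 promoters in all. The 3 below are shown because Kcne2 and Tmem72 followed Ttr most steeply and Kl least, while all 3 hold the core of the sequence that OTX factors bind, TAATC (or GATTA on the other strand), in capitals.
Kcne2, chr16:92292139-92292438, plus strand: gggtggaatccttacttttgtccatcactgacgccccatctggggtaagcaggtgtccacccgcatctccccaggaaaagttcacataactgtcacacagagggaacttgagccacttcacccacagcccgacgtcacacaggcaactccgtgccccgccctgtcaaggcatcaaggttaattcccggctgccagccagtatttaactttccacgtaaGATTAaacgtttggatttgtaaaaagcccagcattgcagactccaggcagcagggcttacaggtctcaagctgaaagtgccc
Tmem72, chr6:116716709-116717008, minus strand: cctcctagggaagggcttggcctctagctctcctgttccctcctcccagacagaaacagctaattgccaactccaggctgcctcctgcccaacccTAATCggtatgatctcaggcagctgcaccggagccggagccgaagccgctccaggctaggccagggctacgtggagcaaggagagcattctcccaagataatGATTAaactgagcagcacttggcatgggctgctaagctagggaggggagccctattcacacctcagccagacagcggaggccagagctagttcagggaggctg
Kl, chr5:150952357-150952656, plus strand: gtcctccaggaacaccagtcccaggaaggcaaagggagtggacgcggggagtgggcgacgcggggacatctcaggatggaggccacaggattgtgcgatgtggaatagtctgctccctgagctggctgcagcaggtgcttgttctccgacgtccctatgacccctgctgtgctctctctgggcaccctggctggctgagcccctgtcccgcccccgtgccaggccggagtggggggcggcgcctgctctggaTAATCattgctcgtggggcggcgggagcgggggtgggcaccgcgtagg
Kcne2 and Kl each hold 1 match and Tmem72 holds 2. On both strands, TAATC occurred in 22% of the 32851 promoters in the table, and in 4 of the 10 member promoters (Kcne2, Kl, Otx2 and Tmem72). The longer TAATCC, which contains it, occurred in 7.06% of all promoters and among the members in Otx2 alone. GTTGCC, part of the site of RFX factors, occurred in 12.5% of all promoters and in Aqp1, Kcne2 and Otx2, and TATAAA in 13.6% of all and in Otx2 alone. A match is a description of these letters and not of a site in use.

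How strongly each gene followed Ttr was measured as a slope, the change in log2 level per log2 unit of Ttr, in 1 edgeR fit over 16359 genes with a term for each of the 8 groups. A slope of 1 means a gene changed in proportion to Ttr. Of all genes, 444 rose with Ttr (2.71%) and 3 fell (0.0183%) at an adjusted p under 0.05 (edgeR's quasi-likelihood test, Benjamini-Hochberg over all genes). All 9 other members were among those that rose. Tmem72 (1.01 ± 0.05, slope ± SE) and Kcne2 (0.95 ± 0.03) rose in near proportion to Ttr, followed by Folr1 (0.85 ± 0.03), Aqp1 (0.82 ± 0.04) and Clic6 (0.65 ± 0.05). Calml4 (0.49 ± 0.04), Sostdc1 (0.47 ± 0.04), Otx2 (0.44 ± 0.05) and Kl (0.35 ± 0.04) rose less steeply, and their adjusted p ran from 2.3e-14 to 5.1e-08 by the same edgeR test. Kcne2, Folr1 and Tmem72 had the highest within-group correlation with Ttr of any gene.

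Members differed in how low they went where Ttr was low. In female Pb 5, the library with least Ttr, Kl stood at 41.8 CPM, above its median over all libraries, while Kcne2 stood at 0.225, Folr1 at 0.225 and Tmem72 at 0.169 CPM. From that library to male Pb 2, Ttr rose 529-fold, Tmem72 468-fold, Folr1 256-fold and Kcne2 152-fold, but Sostdc1 only 16.1-fold and Kl 6.56-fold. The slope of each of the 9 members stayed past the threshold in all 59 alternative fits, including each left-out library, with a largest adjusted p of 0.044 (edgeR or limma).

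**Figure D2:**
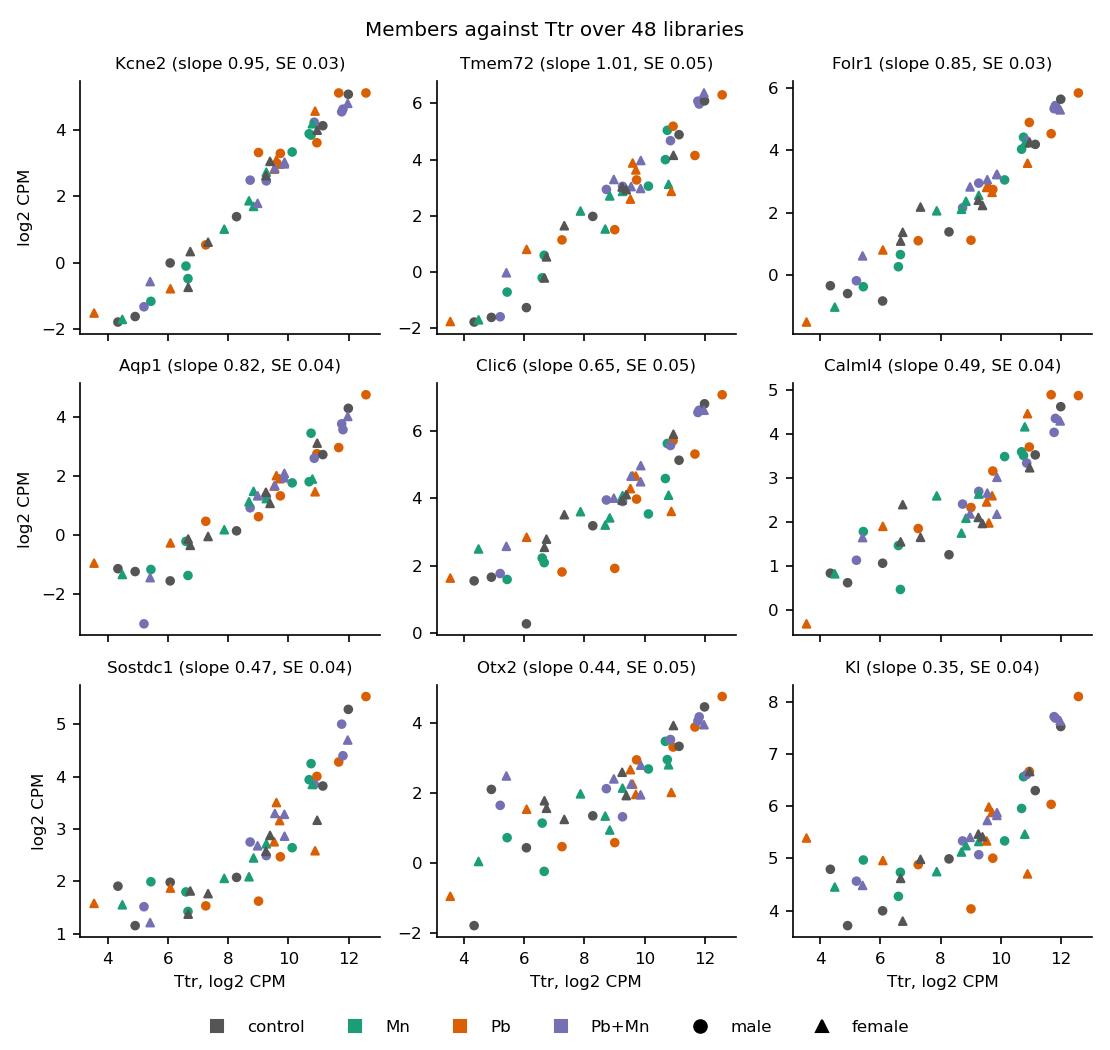
Log2 CPM of each of the other 9 genes (vertical axes) against log2 CPM of Ttr (horizontal axes) over 48 libraries, coloured by exposure of the dam, with circles for males and triangles for females; panel titles give the edgeR slope within groups and its SE. Kcne2 and Tmem72 rise along nearly the whole range, while Kl and Sostdc1 flatten where Ttr is low.

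Other genes of the choroid plexus moved the same way. Of a list of 38 further plexus genes, 36 were tested and 33 rose with Ttr, the exceptions being Slc29a4, Slc5a5 and Stra6, and their median slope was 0.32 against -0.00066 over all genes. Among them Mfrp had a slope of 0.94 ± 0.05, Kcnj13, a potassium channel, 0.91 ± 0.04, Slc4a5, a bicarbonate transporter, 0.88 ± 0.05, and Steap1 0.74 ± 0.04. Cldn2, a tight junction protein of leaky epithelia, had a slope of 0.74 ± 0.05 and F5, coagulation factor V, 0.70 ± 0.05. Prr32 stood at 0.72 ± 0.04, Col8a1, a collagen chain, at 0.50 ± 0.04, and Sulf1, which trims sulphate from heparan sulphate, at 0.46 ± 0.04. Outside the list, Wfdc2 (0.86 ± 0.04), Abca4, a lipid transporter (0.59 ± 0.05), and Pla2g5, a secreted phospholipase (0.50 ± 0.04), completed the 12 named genes of highest correlation. The summed level of the 36 genes ranged from 483 to 5308 CPM, and its median per group ran from 681 CPM in male controls to 1459 CPM in male Pb+Mn.

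Genes that other brain cells also express were among those that moved with Ttr. Enpp2, the autotaxin enzyme that oligodendrocytes make too, ranged from 116 to 3565 CPM with a slope of 0.49 ± 0.03. Igfbp2, a binding protein for insulin-like growth factors, had a slope of 0.28 ± 0.02 and Htr2c, a serotonin receptor of neurons as well as plexus, 0.23 ± 0.03. Foxj1, the regulator of motile cilia, had a slope of 0.14 ± 0.03. At the weak end of the genes that rose were Ifitm3 (0.09 ± 0.03), Tgfbr3 (0.09 ± 0.02), Fndc1 (0.10 ± 0.03) and Plxnb2 (0.05 ± 0.01), and each of these 4 missed the threshold in several alternatives, some of them with 1 library left out. Only 3 genes fell with Ttr: Syk, a tyrosine kinase of microglia (-0.08 ± 0.02), Pter (-0.06 ± 0.02) and Gm45769 (-0.12 ± 0.03), the last named because the count is small. Syk and Pter were past the threshold in neither sex alone, and with the replicate number as a block their adjusted p was 0.192 and 0.593 (edgeR).

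Markers of the ventricle wall moved with Ttr as well. Of 13 genes of ependyma, the ciliated lining of the ventricles, 8 rose, with a median slope of 0.14, with the smallest p in Spag16 (0.31 ± 0.04), Mlf1 (0.25 ± 0.04), Dynlrb2 (0.24 ± 0.04) and Tekt1 (0.19 ± 0.03), all parts of or linked to motile cilia. The summed ependymal level ranged from 14.9 to 90.6 CPM. No gene passed among 14 of the meninges (median slope 0.05, summed level 59.7 to 219 CPM), 14 of thalamus and habenula (median slope 0.09, 150 to 1348 CPM), 5 of blood, 10 of endothelium, 12 of dentate granule cells, 9 of CA1 neurons, 9 of CA3 neurons and 10 of hippocampal tissue in this edgeR fit. At an unadjusted p under 0.05 lay Dcn (0.07 ± 0.03), Col1a2 (0.08 ± 0.03), Ogn (0.11 ± 0.04) and Fmod (0.08 ± 0.04) of the meninges, and Tac2 (0.14 ± 0.06) and Zic1 (0.17 ± 0.08) of thalamus and habenula. In the same range of p were Gpr161 (-0.07 ± 0.02) and Pou3f1 (-0.06 ± 0.03) of the CA1 genes, the CA3 gene Fmo1 (0.05 ± 0.02) and the endothelial Slco1a4 (0.03 ± 0.02). The lists share genes: Dcn stands in both the meningeal and the CA1 list, and Wfs1, Spink8 and Prox1 in a list of neurons and in that of hippocampal tissue.

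**Figure D3:**
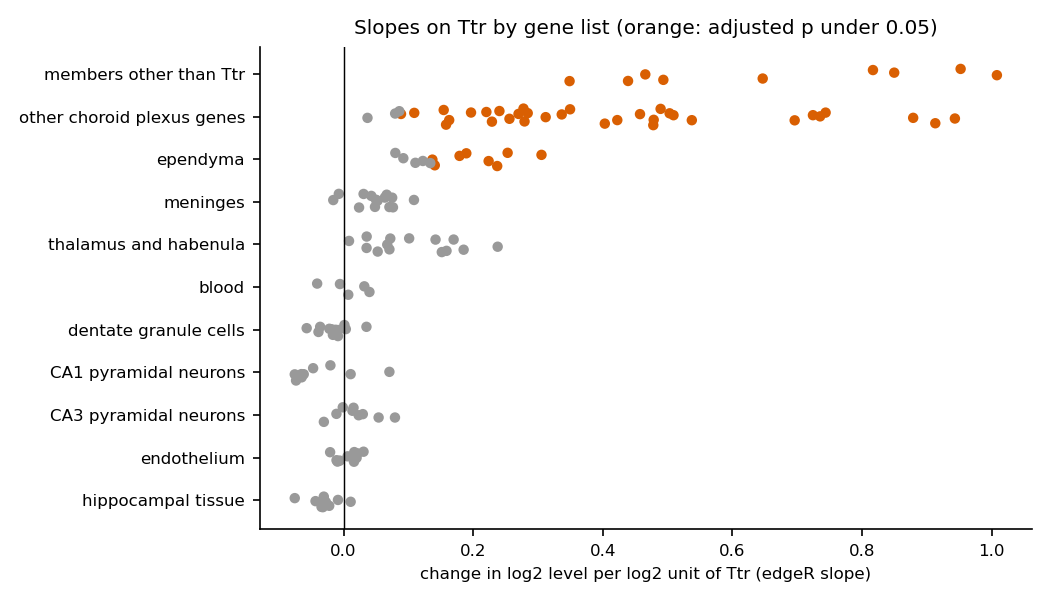
Slope on Ttr of each tested gene, by list (horizontal axis, change in log2 level per log2 unit of Ttr; 1 point per gene; vertical scatter within a row has no meaning). Orange points have an adjusted p under 0.05 and fall in the members, the other choroid plexus genes (33 of 36) and the ependyma (8 of 13).

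Over libraries, mean log2 CPM of the further plexus genes correlated with Ttr at r = 0.916 (rho = 0.953) and that of the ependymal genes at r = 0.731 (rho = 0.733), both with a permutation p adjusted over 12 measures of 6e-05. Without the 2 libraries farthest from the median of Ttr, r was 0.911 and 0.663. The other 10 measures had adjusted permutation p of at least 0.083 for r. Among them r was 0.294 for thalamus and habenula, 0.264 for meninges, 0.334 for CA3 neurons, -0.283 for hippocampal tissue, 0.0007 for total counts and -0.134 for the transcript length slope. The last is the trend of a library's log2 CPM on transcript length, used as a measure of RNA quality.

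Otx2 followed a further measure. It is also made outside the plexus, in parts of the midbrain and diencephalon. With Ttr in the fit, Otx2 rose by 0.47 ± 0.09 log2 units per log2 unit of the mean of the thalamus and habenula genes (adjusted p = 7.7e-05, edgeR over all genes, where 11.7% of genes had such a slope in either direction). For the other 8 members the adjusted p was at least 0.54. Male control 5 had 4.17 CPM of Otx2 at 29.997 CPM of Ttr, and female Pb+Mn 4 had 5.48 CPM at 42.4 CPM of Ttr, whereas male control 6 had 0.165 CPM of Otx2 at 20.1 CPM of Ttr. The first 2 of these libraries stood high in thalamus and habenula genes, with mean log2 CPM of 5.80 and 4.90. What remained of Otx2 after Ttr and group means were taken out was set against the thalamus and habenula mean, with group means taken out of it too. The 2 correlated at r = 0.649 and rho = 0.643 (permutation p = 1e-05 each, the smallest possible), and at 0.617 without the 2 farthest libraries. This measure was tested after the Otx2 values had been seen.

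The balance among the members moved with the transcript length slope. Since that measure is a trend on length, long transcripts tend to rise with it and short ones to fall by construction. Exon length was 17.15 kilobases for Tmem72, 5.12 for Kl, 3.76 for Clic6, 3.0 for Otx2 and 2.63 for Aqp1. It was 1.78 for Sostdc1, 1.77 for Kcne2, 1.58 for Folr1 and 1.32 for Calml4. Per 0.1 of that slope, and with Ttr in the fit, Kl rose by 0.62 ± 0.07 log2 units (adjusted p = 1.6e-09), Clic6 by 0.55 ± 0.09, Tmem72 by 0.48 ± 0.09, Aqp1 by 0.38 ± 0.09 and Sostdc1 by 0.35 ± 0.08 in edgeR. Kcne2 fell by 0.20 ± 0.05 (adjusted p = 0.0013) and Calml4 fell by 0.21 ± 0.08 (adjusted p = 0.028, edgeR), while Folr1 (0.17 ± 0.08) and Otx2 (0.22 ± 0.13) did not pass. Of all genes 54.9% had such a slope in either direction, beside 7 of the 9 members, so most genes of the tissue moved with this measure too. Male Pb 6 (length slope -0.338) and female Pb 2 (-0.311) stood lowest. In male Pb 6, Kl was at 16.2 and Kcne2 at 9.78 CPM with 516 CPM of Ttr, and in female Pb 2, Kl was at 25.9 and Kcne2 at 23.4 CPM with 1897 CPM of Ttr. The log2 ratio of Kcne2 to Kl, with Ttr and group means taken out, was set against the length slope, with group means taken out of it too. The 2 correlated at r = -0.747 and rho = -0.651 (permutation p = 1e-05 each, the smallest possible), and at -0.620 without the 2 farthest libraries. The ratio was chosen after the data had been seen.

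**Figure D4:**
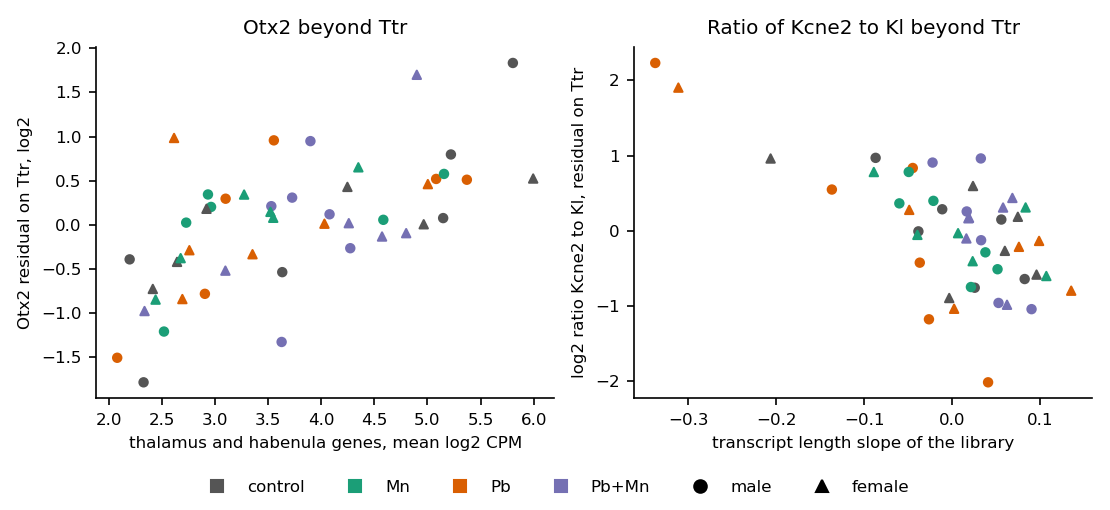
Left, what remained of Otx2 after Ttr (vertical axis, log2) against the mean log2 CPM of 14 thalamus and habenula genes; right, what remained of the log2 ratio of Kcne2 to Kl after Ttr against the transcript length slope of the library. Each point is 1 of 48 libraries, coloured by exposure, with circles for males and triangles for females. The horizontal axes show the measures with group means left in. With group means taken out of both axes, r is 0.649 for the left pair and -0.747 for the right pair.

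No choroid plexus gene passed the test between groups. In the 16 comparisons, 0 of the 10 members passed an adjusted p of 0.05 (edgeR) and 0 had an unadjusted p under 0.05. Of all 16360 genes, 0% passed in 15 comparisons and 0.0428% (7 genes) in female against male controls, and between 0.568% (sex by Pb+Mn) and 22.3% (male Pb+Mn against Pb) had an unadjusted p under 0.05. Against control, that share was 1.92% in male Mn, 11.5% in male Pb, 2.24% for males with both metals, and 2.59%, 2.25% and 1.46% in the same female groups. It was 3.81% and 2.38% for Pb+Mn against Mn in males and females, 3.71% for female Pb+Mn against Pb, 13.1% and 3.17% for the interaction of the metals in males and females, 1.08% for female against male controls, and 0.844% and 1.89% for the interaction of sex with Mn and Pb. DESeq2 and limma voom also called 0 members in every comparison. In male Pb+Mn against Pb, DESeq2 called 304 of 12584 genes and edgeR without male Pb 5 called 1129 of 16494, with 0 members among them. Every member's values overlapped between the groups in every comparison of 2 groups. The comparisons with control share the same 6 control libraries of a sex.

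The fold changes were large nonetheless, and so were their errors. For Ttr, the log2 fold change against control was -0.51 ± 1.1 (SE) in male Mn, 0.93 ± 1.11 in male Pb, with 0.57 ± 1.1 for Pb+Mn. In females it was -0.05 ± 1.1 in Mn, 0.25 ± 1.1 in Pb and 0.98 ± 1.11 in Pb+Mn. For Ttr in male Pb the 95% interval ran from -1.32 to 3.17, so differences of several fold either way lie within it. The SE of the members lay between 0.59 and 1.12 in comparisons of 2 groups, against a median of 0.16 over all genes. For Ttr in female against male controls the log2 fold change was -0.90 ± 1.11.

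The members' fold changes shared a sign in most comparisons; since the genes move together among libraries, these signs are not independent of each other. All 10 were positive in male Pb (median log2 fold change 0.64), male Pb+Mn (0.52) and female Pb+Mn (0.89) against control, and all 10 were negative in male Mn (-0.51) and in female against male controls (-0.84). Female Mn (-0.18) and female Pb (0.09) were mixed, with 4 and 6 positive. For Pb+Mn against Mn the median was 1.01 in males and 1.03 in females, with 10 of 10 positive in each, and against Pb it was -0.16 in males (3 positive) and 0.84 in females (10 positive). The median over all genes lay within 0.013 of 0 in each comparison. The smallest unadjusted p of a member were 0.060 for Kl in male Pb+Mn against Mn (1.16 ± 0.60, adjusted p = 0.95) and 0.064 for Tmem72 in female Pb+Mn against Mn (2.07 ± 1.09, adjusted p = 1) in edgeR.

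**Figure D5:**
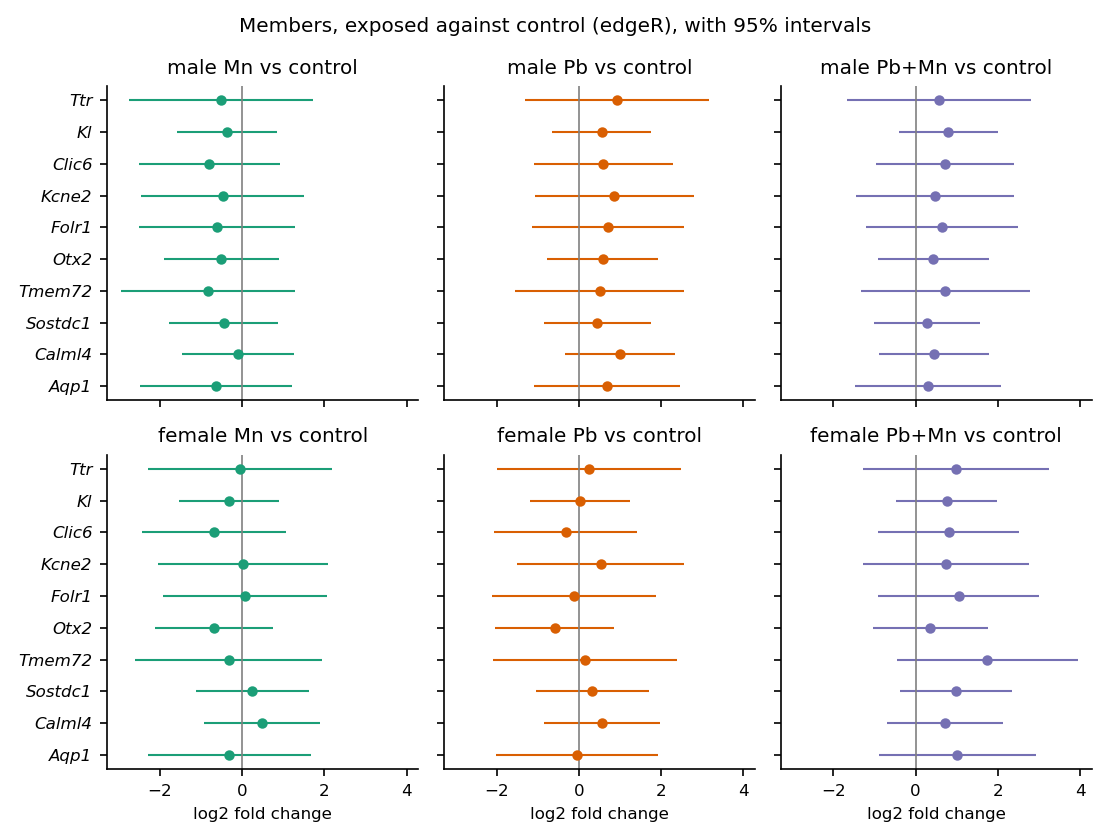
Log2 fold changes of the 10 members against control of the same sex for the 6 exposed groups (edgeR; points, estimates; bars, 95% intervals). All intervals include 0. The 10 estimates lie on the same side in male Mn, male Pb, male Pb+Mn and female Pb+Mn. In female Mn and female Pb they are split, with 4 and 6 positive.

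Single libraries moved these medians, and some of the signs. Leaving out each library in turn turned no median in Pb+Mn against control (0.19 to 1.62 in males, 0.13 to 1.44 in females), in Pb+Mn against Mn (0.68 to 1.49 and 0.32 to 1.55) or in female Pb+Mn against Pb (0.15 to 1.01). Without male control 3, which had 4079 CPM of Ttr, the members' median turned from -0.51 to 0.61 in male Mn and from -0.84 to 0.35 in female against male controls, and grew from 0.64 to 1.99 in male Pb and from 0.52 to 1.62 in male Pb+Mn. Then 7 members in the Pb comparison of males and 5 in that of Pb+Mn had an unadjusted p under 0.05, with 0 past the adjusted threshold (edgeR). Of all 16473 genes in that fit, 1440 and 567 had an unadjusted p under 0.05. Without male Pb 2, the median in male Pb turned to -0.12 and that in male Pb+Mn against Pb to 0.59. Without female Pb+Mn 1, the median in female Pb+Mn against control dropped from 0.89 to 0.13, against Pb from 0.84 to 0.15 and against Mn from 1.03 to 0.32, and Tmem72 in female Pb+Mn against Mn from 2.07 to 0.77. Without female control 5, the medians in female Mn and female Pb moved to 0.46 and 0.64, and without female Pb 2 that in female Pb turned to -0.23. Without male control 4 and female Pb 4, the medians were 0.76 in male Pb, 0.76 in male Pb+Mn, -0.38 in male Mn, -0.55 in female against male controls and -0.08 in female Pb. The scale mattered too. Mean Ttr was 791 ± 807 CPM in male Mn and 1129 ± 1687 CPM in male controls (SD, n = 6 each), but mean log2 CPM was 8.38 and 7.79, and limma voom, which works on the log scale, gave 0.60 where edgeR gave -0.51.

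The interactions held no call either. The members' median log2 difference was 0.31 for the interaction of Pb and Mn in males and 1.07 in females, and 0.48, -0.60 and 0.34 for the interaction of sex with Mn, Pb and Pb+Mn. Without male control 3 the median turned to -0.84 in males, to -0.77 for sex by Mn and to -0.83 for sex by Pb+Mn, and that for sex by Pb, already negative, went to -1.70. Without female Pb+Mn 1 the female interaction of the metals dropped to 0.35, and without male Pb 2 that of sex with Pb moved to 0.0046.

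All of the other 9 members rose with Ttr within groups. Shifted fold changes and smaller errors with Ttr in the fit follow from those slopes, so they are a description. With Ttr in the fit, the median fold change of the other 9 members lay closer to 0 in 13 of the 16 comparisons. The exceptions were male Pb+Mn against Pb (from -0.15 to 0.23), female Pb against control (0.03 to 0.13) and the interaction of the metals in males (0.35 to 0.47). The median SE of the other 9 members in male Pb against control went from 0.83 to 0.34, and their median log2 fold change from 0.60 to -0.10. In female Pb+Mn against control the median went from 0.80 to 0.17, and in female against male controls from -0.79 to -0.10. No member passed the adjusted threshold with Ttr in the fit, at these smaller errors. In each of 2 comparisons, the interaction of the metals in females and female against male controls, 1 of the 9 had an unadjusted p under 0.05 (edgeR). Of all 16359 genes in that fit, 469 and 198 did so in these 2 comparisons. In male Pb+Mn against Mn the median of the 9 went from 0.94 to 0.28, with values from -0.06 to 0.65.

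Fold changes also moved for the 435 genes beyond the members that rose with Ttr. Since they were chosen by that slope, their shift is a description. In male Pb against control, 360 of the 435 had a positive fold change (median 0.21) without Ttr in the fit and 143 with it (median -0.10). In male Pb+Mn the numbers were 342 (median 0.18) and 192 (-0.04), and in female Pb+Mn 375 (0.25) and 307 (0.10). For the interaction of sex and Pb the median went from -0.33 to 0.01. In male Mn it hardly moved, from -0.12 to -0.13. In female Pb+Mn against Mn, 409 of the 435 were positive without Ttr (median 0.38) and 346 with it (0.20), so part of the shift was kept.

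Calls over all genes stayed at 0 in 15 comparisons, and at 7 in female against male controls, when Ttr entered the fit. At an unadjusted p under 0.05 the number went from 1886 to 1526 in male Pb against control, with 1324 genes in both, from 367 to 459 in male Pb+Mn against control, with 294 in both, and from 3643 to 3552 in male Pb+Mn against Pb, with 3461 in both. Of the 435 following genes, 19 (4.37%) lay under 0.05 in male Pb without Ttr in the fit, against 11.5% of all genes (edgeR). With Ttr in the fit 11 of them did, beside 1526 of all 16359 genes. The share varied by comparison. Without Ttr it was above that of all genes in female Pb+Mn against Mn (9.2% against 2.38%) and against Pb (8.05% against 3.71%). The same held for the female interaction of the metals (7.36% against 3.17%) and male Pb+Mn against Mn (6.44% against 3.81%). Elsewhere it was near or below it, as in male Pb+Mn against Pb (3.68% against 22.3%).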

How the data were processed

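Hippocampal RNA was sequenced as stranded poly(A) libraries, per the labels' protocols. The authors deposited whole-number read counts per gene, without normalization. Per the submitters' processing notes, tools included Trim Galore 0.6.9, STAR 2.7.10b and featureCounts 2.0.6, with build GRCm39. Settings for strand and shared reads are not given in the sources used here.

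All 48 libraries entered 1 fit in edgeR 4.0.16 (R 4.3.3; quasi-likelihood F test, TMM, filterByExpr, a term per group, 16360 genes, Benjamini-Hochberg, threshold 0.05), tested on simulated data. The fit for genes that follow Ttr added log2 CPM of Ttr (prior count 2). SE, taken from the fold change and F, is approximate. Intervals on ranges and floors cover counting error only. Exon lengths came from GENCODE M21, which 98.4% of tested genes matched. Symbols matched 51884 of 57126 identifiers (99.52% of counts). Ecrg4, Nov and Pvrl3 are named as in the lists and were not matched. The members and lists were chosen with earlier results of these data known. Named genes were the members, the 12 highest and 6 lowest in correlation with Ttr among named genes that passed with mean log2 CPM of at least 0, up to 4 genes of smallest p of each list (those named here all had an unadjusted p under 0.05, and some are not reported here), and Foxj1, Enpp2, Htr2c and Igfbp2. Alternatives were RLE scaling, no scaling, no filter, DESeq2 1.42.0, limma voom 3.58.1, only the groups compared, a replicate block, covariates, other reference genes, each sex alone and each library left out. Those without the 2 libraries that went against their sex label, without the 2 of lowest length slope and with the thalamus and habenula mean were added after seeing the data.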

Additional observations from a re-analysis of the deposited data

Results flagged for a closer look

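In each of the 80 combinations of gene and group (10 genes, 8 groups of 6), the gap from the highest or lowest library to its neighbour was divided by the range of log2 CPM. A share above Dixon's 95% critical value of 0.625 set 3 libraries apart, each at the low end. Chance alone flags about 1 in 20 combinations, so 3 of 80 is no more than chance gives. Since the members move together, the combinations are also not independent of each other. Kcne2 in male Pb+Mn 3 stood at 0.274 CPM with the next library at 5.36 CPM (share 0.637). Otx2 in female Pb 5 stood at 0.393 CPM with the next at 2.78 CPM (share 0.688). Tmem72 in female Mn 5 stood at 0.181 CPM with the next at 2.75 CPM (share 0.67). Each of these 3 libraries also had the least Ttr of its group, at 36.8, 11.6 and 22.3 CPM.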

How the results depend on the processing

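The 10 members gave 0 calls in every comparison that was run under each of the 61 settings. All 16 comparisons were not run in each, since a library was left out only in the comparisons that its group entered. The 9 slopes on Ttr kept their call in the 59 settings run on them. The counts rest on 0 to 4 reads at the low end of Folr1, Kcne2, Otx2, Tmem72 and Aqp1, which limits their ranges there. No fold change of Ttr passed in any setting. Its sign changed in at least 1 setting in every comparison but male Pb against control, where it ran from 0.278 to 2.42.

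The labels number animals 1 to 6 in each group. Same-numbered libraries did not deviate together (mean r -0.00018 over 72 pairs, from -0.344 to 0.493), and 8 of 48 correlated best with their own number, so the number does not pair them. With the replicate number as a block, 360 genes rose with Ttr, 329 of them among the 444, and Ttr turned to 0.0123 in male Mn, -0.0446 for the interaction of Pb and Mn in males, -0.224 for sex by Mn and -0.934 for sex by Pb+Mn.

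With limma voom, Ttr turned to 0.602 in male Mn, -1.2 for the male interaction, -0.153 in female Pb, 0.617 in female against male controls, -0.678 for sex by Mn and -0.934 for sex by Pb+Mn, and Clic6 to 0.0165 in male Mn. With the mean of the 10 members as covariate, which contains Ttr itself, Ttr turned to 0.126 in male Mn, -0.191 in male Pb+Mn, -0.317 in male Pb+Mn against Mn, -0.614 for the male interaction, 0.16 in female Mn, -0.157 in female Pb+Mn, -0.229 and -0.316 in female Pb+Mn against Pb and Mn, -0.389 for the female interaction and 0.0124 in female against male controls. Without male control 4 and female Pb 4, whose Xist went against the label, it turned to -0.17 for the male interaction. Without male Pb 6 and female Pb 2, of lowest length slope, it turned to -0.0564 there and -0.312 in female Pb.

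Leaving out each library in turn moved Ttr from -0.905 to 0.554 in male Mn, -0.738 to 0.289 in male Pb+Mn against Pb, -0.92 to 0.798 for the male interaction, -0.796 to 0.817 in female Mn, -0.312 to 1.11 in female Pb, -0.172 to 1.29 in female Pb+Mn against Pb, -0.112 to 1.53 for the female interaction and -1.76 to 0.162 in female against male controls. For sex by Mn, Pb and Pb+Mn it moved from -0.583 to 1.33, -1.72 to 0.179 and -0.645 to 1.27. Clic6 moved from -1.56 to 0.638 in male Mn and -0.518 to 1.77 for the male interaction, and Sostdc1 from -0.33 to 1.12 for sex by Mn and -0.342 to 1.14 for sex by Pb+Mn.

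Genes that rose with Ttr numbered 364 (without male control 3) to 485 (without female Pb 2), 73 in females only (337 in males only) and 919 with Kl as the reference in place of Ttr. Genes that fell numbered 2 to 18 (without male control 5) over left-out libraries, 8 with no filter, 43 and 1214 with Clic6 and Kl as the reference, 20 with no group terms, 17 with the length slope as covariate, 0 in females only, 6 without the 2 libraries of lowest length slope and 5 with limma voom. The cause was not tested. Over all genes, male Pb+Mn against Pb had 304 calls with DESeq2 and 0 to 1129 over left-out libraries (1129 without male Pb 5), male Pb against control 0 to 1 (without male Pb 2), and female against male controls 4 where only those groups were fitted. The correlation of Ttr with blood genes was -0.0221 in females, that with endothelial genes -0.0152 in females and -0.0604 without the 2 farthest libraries, and that with total counts -0.0753 with group means taken out, -0.23 in females and -0.0708 without the 2 farthest.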
